A study of Mus musculus with 672 samples.

Results

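Bone marrow progenitors at the step from the all-lymphoid progenitor (ALP) to the B-biased lymphoid progenitor (BLP) were compared in mice without Mbd3, one cell per library. The members were the cells whose column names mark them as a BLP or an ALP of an Mbd3del mouse. Of 240 such cells, 192 were kept, of 561 kept and 672 sorted in the whole series, by limits of at least 50000 counts on and 1000 detected nuclear genes, with mitochondrial genes taking 20% or less and spike-ins 50% or less of the counts. They were 71 BLPs (36 of mouse 18217 and 35 of mouse 18219) and 121 ALPs (79 and 42 of the same mice). Both null mice were Mbd3del/del, and 2 control mice (18218 and 18220, 183 kept cells at this step) were Mbd3flox/flox. All 4 mice were 7 weeks old and of strain C57BL6/129Ola. BLPs were sorted as lineage-negative, Sca-1+ and c-Kit+ cells with high Flt3 and IL-7Ra, that carried Ly6D and lacked B220. ALPs were sorted by the same proteins, except that they lacked Ly6D, so that the sort itself separates the populations by 1 surface protein. The sources used here do not give the promoter or cell type behind the deletion, or the deleted part of the gene. Lymphoid-primed multipotent progenitors (LMPPs) of the same mice, which lack surface IL-7Ra, entered the fit and serve as a low mark for B lineage genes.

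Mbd3 belongs to the NuRD complex, which slides nucleosomes and takes acetyl groups off histones. Early B cell development runs through the transcription factors E2A, Ebf1, Foxo1 and Pax5, which switch on the genes of the pre-B cell receptor, while Rag1 and Rag2 cut antigen receptor genes for joining. In cultured mouse B lineage cells NuRD is known to work against the switching on of Cd79a by Ebf1 and Pax5. Ly6D is used as the surface protein that marks the first B-biased cells among lymphoid progenitors.

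Counts of kept cells were summed per mouse and population, and the summed libraries held 54002037 and 53741264 gene counts for null BLPs and 101521329 and 62979255 for null ALPs. Levels are CPM, gene counts scaled by library size and TMM factor, given for mouse 18217 and then mouse 18219 (18218 and then 18220 for controls), and compare a gene between libraries, not genes with each other. The null ALPs of mouse 18219 lost 42 of 84 cells to the limits, spread over the 4 runs of table columns that hold that mouse's cells, while null BLPs lost 1 of 72. A median of 26.3% and 26.9% of a gene's reads came from 1 cell in the null BLP libraries, against 12.1% and 20.9% in the null ALP libraries. Mbd3 was at 0.337 and 0.569 CPM in null BLPs and 2.88 and 0.351 CPM in null ALPs, against 82.4 and 191 CPM in control BLPs and 99.1 and 102 CPM in control ALPs. Some genes of other lineages were read in null cells, with all cells thinned to equal counts. Mpo of granulocyte precursors was read in 63.9% and 65.7% of null BLPs and 91.1% and 83.3% of null ALPs. Siglech of plasmacytoid dendritic cells was read in 44.4% and 54.3% of null BLPs and 12.7% and 28.6% of null ALPs. The 4 genes named next had few or no reads in the null libraries of both populations. They do not stand for all genes of other lineages. Cd3e, a chain of the T cell receptor complex, had 45 and 0 reads in null BLPs and 0 and 0 in null ALPs. The neutrophil elastase gene Elane had 0 and 0 reads in null BLPs and 1 and 0 in null ALPs. The macrophage gene C1qa had 0 and 0 reads in null BLPs and 4 and 0 in null ALPs, and Ms4a1, which encodes CD20 of later B cells, had 2 and 2 reads in null BLPs and 0 and 1 in null ALPs.

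The gate was visible in the transcripts. Ly6d was at 2627 and 1501 CPM in null BLPs, against 36.2 and 87.5 CPM in null ALPs. Its level was higher in BLPs of both mice, with a log2 change of 5.06 ± 0.68 (approximate SE), against 5.24 ± 0.69 at the control step. At an equal depth of 50000 gene counts per cell a Ly6d read was found in 100% and 100% of null BLPs, against 36.7% and 40.5% of null ALPs. The other gate genes were close between the populations: Il7r, the IL-7 receptor chain, had 676 and 591 CPM in null BLPs and 608 and 546 CPM in null ALPs, and Kit had 109 and 137 CPM in null BLPs and 128 and 136 CPM in null ALPs. Flt3 was lower in BLPs of both mice, at 584 and 651 CPM in null BLPs and 804 and 817 CPM in null ALPs (log2 change -0.39 ± 0.11). Ly6a, which encodes Sca-1, had 304 and 198 CPM in null BLPs and 89.4 and 403 CPM in null ALPs, so its groups overlapped. In these sums, fewer cells with a transcript and less of it per cell cannot be told apart, so shares of cells are given further on.

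No gene passed the threshold at the null step: 0 of 19903 genes (0.0%) had an adjusted p under 0.05 in edgeR's quasi-likelihood test, and 1274 (6.4%) had an unadjusted p under 0.05, of which 506 (2.54%) were higher and 768 (3.86%) lower in BLPs. DESeq2 on the same sums called 448 genes and limma-voom called 0. The common biological coefficient of variation of the fit was 86.9%, estimated over all summed libraries, LMPPs included. Each library is a sum of few cells, so this value does not measure differences between mice alone. The smallest adjusted p was 0.266, shared by Ly6d and Cutc. Over all genes the median log2 change was -0.00, and the 2 BLP libraries lay above both ALP libraries for 3178 genes (16.0%) and below both for 3799 (19.1%). At the control step 1 gene (0.00502%) passed, Ebf1, and 1493 (7.5%) had an unadjusted p under 0.05, of which 688 (3.46%) were higher and 805 (4.04%) lower in BLPs. Every difference given for a single gene of the null step therefore missed the threshold in this test.

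The 8 genes with the smallest p that were higher in null BLPs, at 20 CPM or more and without overlap between mice, were Ly6d, Ly6e, Kctd12, Ifitm1, Colq, Rad21, Yme1l1 and Ankrd44. Ly6e, a relative of Ly6d that also encodes a small lipid-anchored surface protein, had 4931 and 4317 CPM in null BLPs and 1816 and 2538 CPM in null ALPs, a log2 change of 1.09 ± 0.17 (adjusted p 0.362, edgeR). Ifitm1, an interferon-inducible membrane protein gene, had 161 and 164 CPM in null BLPs and 41.4 and 51.7 CPM in null ALPs (1.80 ± 0.33). Rad21, a cohesin subunit, had 251 and 202 CPM in null BLPs and 104 and 92.8 CPM in null ALPs (1.20 ± 0.23). The choice of genes required no overlap and favoured a small p. That the BLP values of these 3 genes lay above both ALP values therefore follows from the choice. Kctd12 had a log2 change of 1.53 ± 0.27, Colq of 1.40 ± 0.26, Yme1l1, a mitochondrial protease gene, of 0.88 ± 0.17 and Ankrd44 of 1.30 ± 0.27, with adjusted p-values of 0.578 to 0.646.

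The 8 genes chosen the same way that were lower in null BLPs were Cutc, Hlf, Map2k5, Tst, Dtd1, Wdr34, Cd34 and Cox15. Hlf, a transcription factor of stem and multipotent cells, had 3.9 and 3.17 CPM in null BLPs and 23.4 and 23.5 CPM in null ALPs, a log2 change of -2.73 ± 0.41 (adjusted p 0.362, edgeR). Cd34, a surface protein of early progenitors, had 102 and 250.1 CPM in null BLPs and 589 and 582 CPM in null ALPs (-1.73 ± 0.35). Cutc had 3.69 and 3.6 CPM in null BLPs and 25.7 and 26.1 CPM in null ALPs (-2.83 ± 0.38), and Map2k5, a kinase of the ERK5 pathway, had 22.3 and 16.3 CPM in null BLPs and 76.4 and 72.3 CPM in null ALPs (-1.95 ± 0.30). Both ALP values of Hlf, Cutc and Map2k5 were nearly equal, and both BLP values were several-fold lower. Such values are what a choice by no overlap and smallest p favours, so they are not separate evidence. Tst, which encodes the mitochondrial enzyme rhodanese, was almost absent from null BLPs, with 33 and 71 reads against 3922 and 2060 reads in null ALPs. Cox15 makes the haem of cytochrome oxidase and had a log2 change of -1.80 ± 0.37, Dtd1 one of -1.60 ± 0.31 and Wdr34 one of -2.04 ± 0.40.

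The genes of the pre-B cell receptor and its signalling chains were higher in null BLPs without exception. All 6 members of that list lay above both ALP values in both BLP libraries, against 16.0% of all genes, and 0 passed the threshold. Their median log2 change was 2.31 at the null step, with a summed level of 1743 and 1184 CPM in null BLPs and 246 and 533 CPM in null ALPs. The control step had a median of 5.86, and each of the 6 genes had a smaller log2 change at the null step than at the control step. Igll1 (lambda5) and Vpreb1 encode the surrogate light chain, which stands in for a light chain before one is made. Igll1 had 646 and 194 CPM in null BLPs and 1.82 and 4.76 CPM in null ALPs (7.00 ± 1.48, adjusted p 0.646, edgeR). Vpreb1 had 91.3 and 109 CPM in null BLPs and 3.39 and 2.65 CPM in null ALPs (5.05 ± 1.24). In the BLP libraries the single cell with the most reads held 72.6% and 69% of the Igll1 reads and 58.6% and 64.4% of the Vpreb1 reads. Without that cell of each gene, Igll1 stood at 203 and 62.3 CPM and Vpreb1 at 43.5 and 40.2 CPM in null BLPs, still above the ALPs of both mice. Reads of Vpreb1 and its near-identical copy Vpreb2 may be split between them.

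Vpreb3, which binds newly made immunoglobulin chains, had 207 and 69.2 CPM in null BLPs and 6.62 and 26.4 CPM in null ALPs (3.07 ± 0.99). The largest cell held 66.2% and 87.2% of the Vpreb3 reads of the BLP libraries, and without it the BLP level was 80.4 and 9.2 CPM, so that the groups then overlapped. Cd79a, the Ig-alpha signalling chain, had 524 and 499.9 CPM in null BLPs and 90.8 and 279.9 CPM in null ALPs (1.47 ± 1.10), against 363 and 419 CPM in control BLPs and 15.1 and 0.941 CPM in control ALPs. Cd79b, its partner Ig-beta, had 208 and 242 CPM in null BLPs and 122 and 194 CPM in null ALPs (0.51 ± 0.35). The BLP levels of Cd79a were near each other in all 4 mice, while its null ALPs held many times the level of control ALPs. The null step of Cd79a minus its control step was -4.13 ± 1.59 on the log2 scale (edgeR contrast of the steps, unadjusted p 0.0298, adjusted p 0.776). Vpreb2 had a difference of -3.91 ± 1.46 (unadjusted p 0.0263) and Vpreb3 one of -4.38 ± 1.35 (unadjusted p 0.0109).

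Promoters of 3 of these genes are shown because their products mark entry into the B lineage; they were chosen after the values were seen. Each runs from 250 bases before the start of the gene to 50 after it, on the coding strand (RefSeq, GRCm38.p6), and capitals mark CCCNNGGG, the core of the Ebf1 motif, and CANNTG, the E-box bound by E proteins such as E2A and Tcf12.
Igll1 (chr16:16863936-16864235, minus strand): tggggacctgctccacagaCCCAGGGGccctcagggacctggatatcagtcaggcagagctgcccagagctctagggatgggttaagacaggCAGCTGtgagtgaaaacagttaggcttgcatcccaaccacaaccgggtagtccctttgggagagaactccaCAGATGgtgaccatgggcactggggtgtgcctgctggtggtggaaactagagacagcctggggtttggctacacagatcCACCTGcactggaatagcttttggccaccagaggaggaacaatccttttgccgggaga
Vpreb1 (chr16:16869206-16869505, minus strand): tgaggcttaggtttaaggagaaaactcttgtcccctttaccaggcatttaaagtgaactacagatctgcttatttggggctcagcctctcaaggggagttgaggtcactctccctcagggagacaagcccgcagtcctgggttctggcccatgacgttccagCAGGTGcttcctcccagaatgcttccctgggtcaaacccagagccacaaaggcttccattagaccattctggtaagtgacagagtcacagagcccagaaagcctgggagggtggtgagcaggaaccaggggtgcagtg
Cd79a (chr7:24897247-24897546, plus strand): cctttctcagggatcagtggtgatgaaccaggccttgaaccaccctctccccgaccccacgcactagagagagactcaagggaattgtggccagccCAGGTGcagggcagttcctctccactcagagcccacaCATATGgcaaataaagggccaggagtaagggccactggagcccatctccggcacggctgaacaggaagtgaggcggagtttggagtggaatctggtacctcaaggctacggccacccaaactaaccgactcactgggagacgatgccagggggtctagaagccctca
The Igll1 window holds 1 CCCNNGGG, with its first base at -231 from the start, and 3 CANNTG at -158, -87 and -8. The Vpreb1 window holds 1 CANNTG at -88, and the Cd79a window holds 2, at -154 and -117. Both strands were searched, both motifs read the same on either strand, and no matches overlapped. TGGGAA, the Ikaros core, was searched as well and is in none of the 3 windows. Of 32851 RefSeq promoters of this length, 13.7% hold CCCNNGGG, 72.3% CANNTG and 25.6% TGGGAA. Of 21 early B genes, 17 had a promoter in the table, and of the first listed promoter of each, 4 (23.5%) hold CCCNNGGG, 16 (94.1%) CANNTG and 3 (17.6%) TGGGAA. Ebf1 and Lef1 have more than 1 listed promoter, and the second of Ebf1 holds 2 CANNTG and 1 TGGGAA where its first holds 0 of each. A match describes the letters only.

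**Figure D1:**
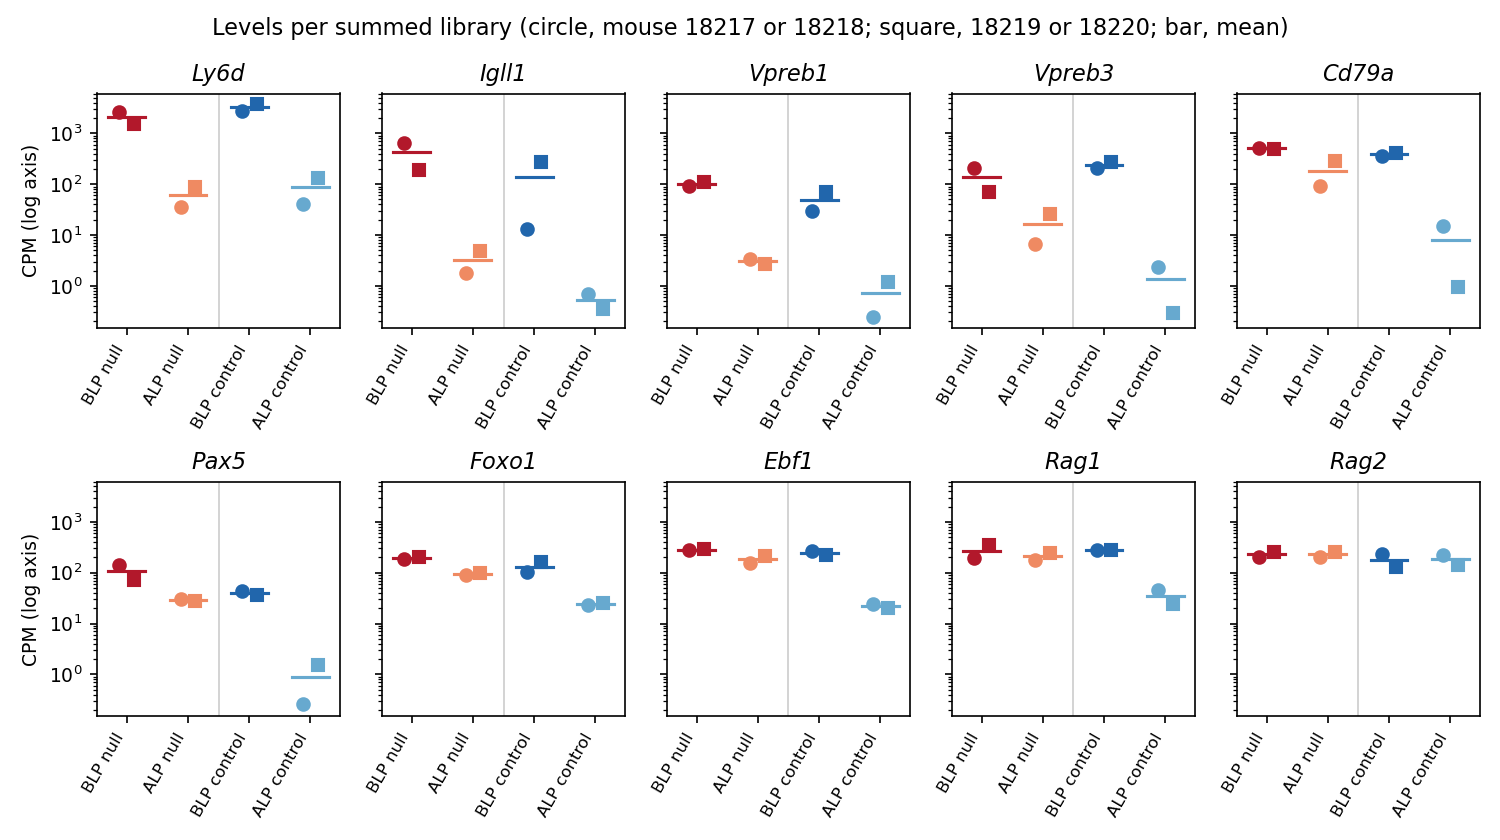
Levels (CPM, log axis) of 10 genes in the summed libraries of BLPs and ALPs of null mice (left pair of each panel) and control mice (right pair), with a point per mouse and a bar at the mean of 2 mice. Ly6d, Igll1 and Vpreb1 stand well apart between BLPs and ALPs in both genotypes, while for Ebf1 and Rag1 the ALPs of null mice lie near the BLPs and the ALPs of control mice lie far below, and for Cd79a the ALPs of null mice lie between.

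Among transcription factors of the B lineage, 17 of 20 had a higher and 3 (Ikzf3, Spi1 and Tcf12) a lower level in null BLPs; 10 (50%) lay above both ALP values in both mice and 1 (5%) below them, against 16.0% and 19.1% of all genes, and 0 passed the threshold. The list's median log2 change was 0.58, against 0.38 at the control step, and its summed level was 5399 and 4828 CPM in null BLPs and 3625 and 3515 CPM in null ALPs. Ebf1, the factor that specifies B cells, was high on both sides of the step in null mice. It had 278 and 291 CPM in null BLPs and 154 and 217 CPM in null ALPs, a log2 change of 0.62 ± 0.24 (unadjusted p 0.0312, adjusted p 0.76, edgeR). In control mice Ebf1 rose to 267 and 227 CPM in BLPs, against 24.7 and 19.9 CPM in ALPs, a log2 change of 3.47 ± 0.26 (adjusted p 0.0107, edgeR). That control call was lost without any 1 of the 4 mice (adjusted p 0.211 to 1) or without the ALP libraries of mice 18219 and 18220 (0.404), at log2 changes of 3.33 to 3.52. For Ebf1 the null step minus the control step was -2.85 ± 0.34, with the smallest p of that contrast (unadjusted p 2.21e-05, adjusted p 0.441, edgeR).

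Pax5, the factor of B lineage commitment, had 141 and 72.1 CPM in null BLPs and 30.9 and 28 CPM in null ALPs (1.85 ± 0.70, adjusted p 0.76, edgeR), against 43.1 and 36.4 CPM in control BLPs and 0.267 and 1.51 CPM in control ALPs. Its null step minus its control step was -3.64 ± 1.00 (unadjusted p 0.00573), with null levels above the control levels on both sides of the gate. Foxo1, a partner of Ebf1 in switching on early B genes, had 187 and 199 CPM in null BLPs and 90.1 and 97.7 CPM in null ALPs (1.04 ± 0.70), against 103 and 160.4 CPM in control BLPs and 22.8 and 24.8 CPM in control ALPs. Pou2af1, a B cell coactivator of octamer-binding factors, had 16.7 and 19.7 CPM in null BLPs and 0.171 and 4.17 CPM in null ALPs (3.07 ± 1.29). Spib, an Ets factor of B and dendritic cells, had 903 and 1111 reads in null BLPs and 3 and 3 reads in null ALPs. Lef1, a factor of Wnt signalling that early B cells use, had 24.4 and 39.6 CPM in null BLPs and 0.219 and 25.4 CPM in null ALPs and overlapped, with an ALP level that differed widely between the mice.

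Irf8, a factor that B cells share with dendritic and monocytic cells, was 1293 and 1051 CPM in null BLPs and 165 and 321 CPM in null ALPs (2.27 ± 0.71, adjusted p 0.745, edgeR). In controls it was high on both sides, at 1020 and 1599 CPM in BLPs and 776 and 1315 CPM in ALPs, and the difference of the steps was 1.95 ± 0.96 (unadjusted p 0.0752). The low values for Irf8 were thus those of the null ALPs. Bach2, a repressor that holds back myeloid genes in B cell precursors, had 120 and 128 CPM in null BLPs and 41.6 and 64.7 CPM in null ALPs (1.22 ± 0.56). Tcf12, an E protein, ran the other way, with 64.9 and 67 CPM in null BLPs and 88 and 106 CPM in null ALPs (-0.55 ± 0.26), against 136 and 119 CPM in control BLPs and 58.2 and 49.1 CPM in control ALPs. The difference of its steps was -1.80 ± 0.37 (unadjusted p 0.000983, adjusted p 0.776, edgeR). Tcf3, which encodes E2A, had 179.7 and 124 CPM in null BLPs and 129 and 78.5 CPM in null ALPs. Ikzf1 (Ikaros), Spi1 (PU.1), Mef2c, Myb, Sox4 and Bcl11a overlapped between the populations.

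The genes of antigen receptor recombination were largely level across the null step. Of 12, 7 were higher and 5 lower, with 1 above (Hmgb2) and 4 below without overlap (Dntt, Lig4, Xrcc4 and Xrcc5), which is 8.33% and 33.3% of the list against 16.0% and 19.1% of all genes, 0 called and a median log2 change of 0.05. Rag1 had 191 and 348 CPM in null BLPs and 176 and 243 CPM in null ALPs (0.37 ± 0.42), against 282 and 284 CPM in control BLPs and 46.1 and 24.2 CPM in control ALPs. The null step of Rag1 minus its control step was -2.64 ± 0.60 (unadjusted p 0.00196, adjusted p 0.776, edgeR). Its partner Rag2 was at 207 and 254 CPM in null BLPs and 207 and 253 CPM in null ALPs, with 229.9 and 129 CPM in control BLPs and 222 and 142 CPM in control ALPs. Rag2 thus had nearly the same level on both sides of the gate in both genotypes, whereas Rag1 was far lower in control ALPs than in the other 3 groups. Dntt, which adds bases at the joins, had 5342 and 7535 CPM in null BLPs and 7830 and 8601 CPM in null ALPs (-0.35 ± 0.26). Xrcc5, the Ku80 subunit that holds broken ends, had 22.4 and 26.8 CPM in null BLPs and 50.1 and 68.6 CPM in null ALPs (-1.27 ± 0.36, adjusted p 0.698, edgeR). Hmgb2, a DNA-bending protein that helps the Rag enzymes, had 119.8 and 117 CPM in null BLPs and 70.8 and 63.6 CPM in null ALPs (0.82 ± 0.25), and its step differed from that of controls by 1.30 ± 0.36 (unadjusted p 0.00599).

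Of 16 genes of B cell receptor signalling, 11 were higher and 5 lower in null BLPs, with 3 above (Blnk and Pik3cd among them) and 1 below without overlap (Bank1), 0 called and a median log2 change of 0.40. The 3 above are 18.8% of the list, near the 16.0% of all genes. The direction of the list rested on mouse 18217, in which 14 of 16 were higher, since 8 of 16 were higher in mouse 18219 and the median was -0.18 without mouse 18217. Blnk, the adaptor that links the receptor to its kinases, had 838 and 721 CPM in null BLPs and 253 and 514 CPM in null ALPs (1.02 ± 0.47, adjusted p 0.768, edgeR). Blk, a Src family kinase of B cells, had 162 and 386 CPM in null BLPs and 64.4 and 182 CPM in null ALPs and overlapped. Syk had 196 and 281 CPM in null BLPs and 170 and 276 CPM in null ALPs, Btk 209 and 147 CPM in null BLPs and 129 and 216 CPM in null ALPs, and Plcg2 303 and 283 CPM in null BLPs and 220 and 396 CPM in null ALPs. These kinases and this phospholipase overlapped between the populations.

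Of 13 genes of IL-7 receptor signalling, 7 were higher and 6 lower in null BLPs, with 1 above and 1 below without overlap, 0 called and a median log2 change of 0.00. Those are 7.69% each, fewer than the 16.0% and 19.1% of all genes. The 1 above was Socs3, a feedback inhibitor of cytokine receptors, at 41.6 and 73.7 CPM in null BLPs and 13.9 and 8.8 CPM in null ALPs (2.34 ± 0.76, adjusted p 0.747, edgeR). The 1 below was Stat5a, a transducer of the IL-7 signal, at 26.4 and 34.6 CPM in null BLPs and 51 and 43.1 CPM in null ALPs (-0.63 ± 0.33). Ighm, the mu heavy chain gene, whose unjoined locus is already transcribed in such progenitors, had 2885 and 2755 CPM in null BLPs and 2220 and 2255 CPM in null ALPs (0.33 ± 0.13). Mzb1, a chaperone of antibody-making cells, had 182 and 286 CPM in null BLPs and 92.5 and 171 CPM in null ALPs, and Ighd 47.2 and 78 CPM in null BLPs and 32.8 and 46.1 CPM in null ALPs. All 3 lay above the ALP values in both null mice, Mzb1 and Ighd by small margins. Of 8 mature B and plasma cell genes tested, 7 were higher and 1 lower, with 4 (50%) above and 0 below without overlap. Of 4 immunoglobulin constant region genes tested, 3 were higher and 1 lower, with 2 (50%) above and 0 below. The shares over all genes were 16.0% and 19.1%, and 0 genes of these lists were called.

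**Figure D2:**
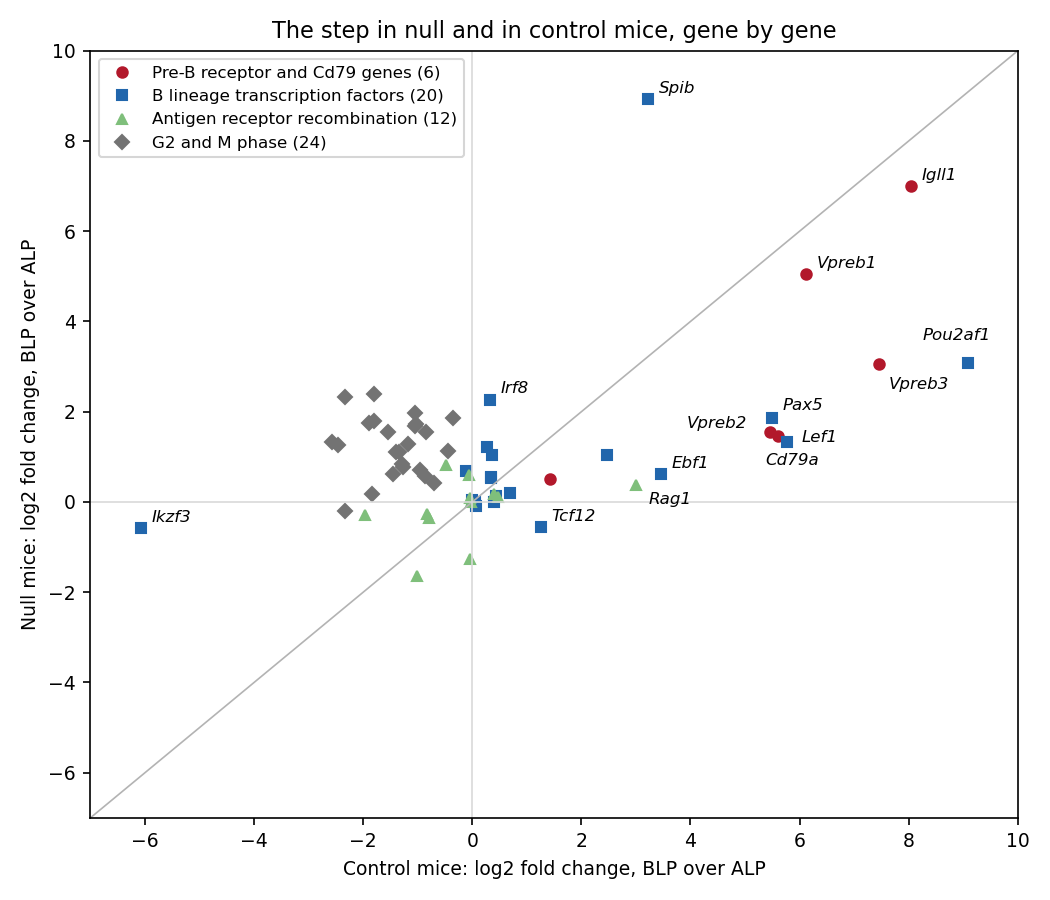
Log2 change from ALP to BLP in null mice (vertical axis) against control mice (horizontal axis) for the genes of 4 lists, with the line of equal change. The 6 pre-B receptor and Cd79 genes lie below the line, the 24 G2 and M phase genes lie above it, and Spib at the top depends on the prior count, since its null ALPs held 3 and 3 reads.

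Shares of cells with a read show how widely a transcript was spread. All kept cells were thinned to the same 50000 gene counts, and with 2 mice against 2 the two-sided exact permutation test cannot give a p below 0.33. A Pax5 read was found in 33.3% and 28.6% of null BLPs and 11.4% and 23.8% of null ALPs, and a Foxo1 read in 72.2% and 68.6% of null BLPs and 38% and 38.1% of null ALPs. Igll1 was read in 27.8% and 25.7% of null BLPs and 11.4% and 14.3% of null ALPs, and Vpreb1 in 22.2% and 31.4% of null BLPs and 7.59% and 11.9% of null ALPs. For these 4 genes the BLP shares exceeded the ALP shares in both mice (exact permutation p 0.33 each, the smallest possible). The higher sums of Igll1 and Vpreb1 in null BLPs thus came with more cells holding a read, beside the single cells that held most of the reads. In null LMPPs a Pax5 read was found in 6.67% and 0%, an Igll1 read in 8.89% and 4.25% and a Vpreb1 read in 0% and 4.25% of cells, where 0 of 45 allows a share of up to 6.67% and 0 of 47 up to 6.38% (3 counts, counting error only).

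At 50000 counts per cell the shares of cells with an Ebf1 read overlapped between null BLPs and null ALPs. Its share was 66.7% and 65.7% of null BLPs and 60.8% and 73.8% of null ALPs (exact permutation p 1), against 73.5% and 71.4% of control BLPs and 32.4% and 17.5% of control ALPs. Null LMPPs had 4.44% and 0%. Cd79a was read in 75% and 60% of null BLPs and 40.5% and 61.9% of null ALPs, and Rag1 in 63.9% and 82.9% of null BLPs and 76% and 69% of null ALPs, so both overlapped at this depth. In control mice the Cd79a shares were 67.7% and 65.7% of BLPs and 18.9% and 2.5% of ALPs, and the Rag1 shares 82.3% and 62.9% of BLPs and 40.5% and 30% of ALPs. The control ALPs were the low group for all 3 genes. With cells of over 500000 nuclear counts thinned to 500000, the mean Ebf1 share was 9.90 percentage points higher in null BLPs than in null ALPs, in place of 1.09 lower. At that depth the groups overlapped for none of these 3 genes. Ebf1 was then read in 100% and 90.6% of null BLPs and 83.3% and 87.5% of null ALPs. Cd79a was read in 90.9% and 84.4% of null BLPs and 60.6% and 77.5% of null ALPs, and Rag1 in 90.9% and 90.6% of null BLPs and 78.8% and 82.5% of null ALPs. The overlap of Ebf1, Cd79a and Rag1 between null BLPs and null ALPs thus held at the lower depth and not at the higher one, which fewer cells reached.

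At 50000 counts Mpo, the myeloperoxidase of granulocyte precursors, was read in 63.9% and 65.7% of null BLPs and 91.1% and 83.3% of null ALPs, and Siglech, a surface lectin of plasmacytoid dendritic cells, in 44.4% and 54.3% of null BLPs and 12.7% and 28.6% of null ALPs. Apoe, which encodes a lipid carrier and whose reads were many times fewer in control cells, was read in 16.7% and 14.3% of null BLPs and 26.6% and 26.2% of null ALPs, against 0% and 0% of control BLPs and 6.76% and 2.5% of control ALPs. At 500000 counts per cell all 3 genes overlapped. Mpo was then read in 93.9% and 84.4% of null BLPs and 100% and 85% of null ALPs, and Siglech in 66.7% and 68.8% of null BLPs and 28.8% and 72.5% of null ALPs. Apoe was read in 42.4% and 28.1% of null BLPs and 39.4% and 35% of null ALPs at that depth. The Siglech share was then lower in BLPs of mouse 18219, and the Apoe share higher in BLPs of mouse 18217. The summed level of Apoe was 44.5 and 27.2 CPM in null BLPs and 36 and 49.6 CPM in null ALPs, against 0.27 and 0.105 CPM in control BLPs and 2.03 and 3.42 CPM in control ALPs.

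The count table holds its cells in 8 runs of 84 columns, and the sources used here do not say what a run stands for. The null BLPs and ALPs of a run came from the same null mouse, so shares could be compared within runs. The runs split the cells already counted above and are not replicates. The share of null BLPs exceeded that of null ALPs for Ly6d and Vpreb1 in 8 of 8 runs and for Foxo1 and Siglech in 7 of 8. Mpo had the lower share in BLPs in 7 of 8 runs. Igll1 was higher in 5 runs and lower in 2, and Ebf1 and Pax5 were higher in 5 and lower in 3. Across these splits of the same cells the direction was thus mostly the same for Ly6d, Vpreb1, Foxo1, Siglech and Mpo, and mixed for Igll1, Ebf1 and Pax5. It adds no replicate to the values per mouse.

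**Figure D3:**
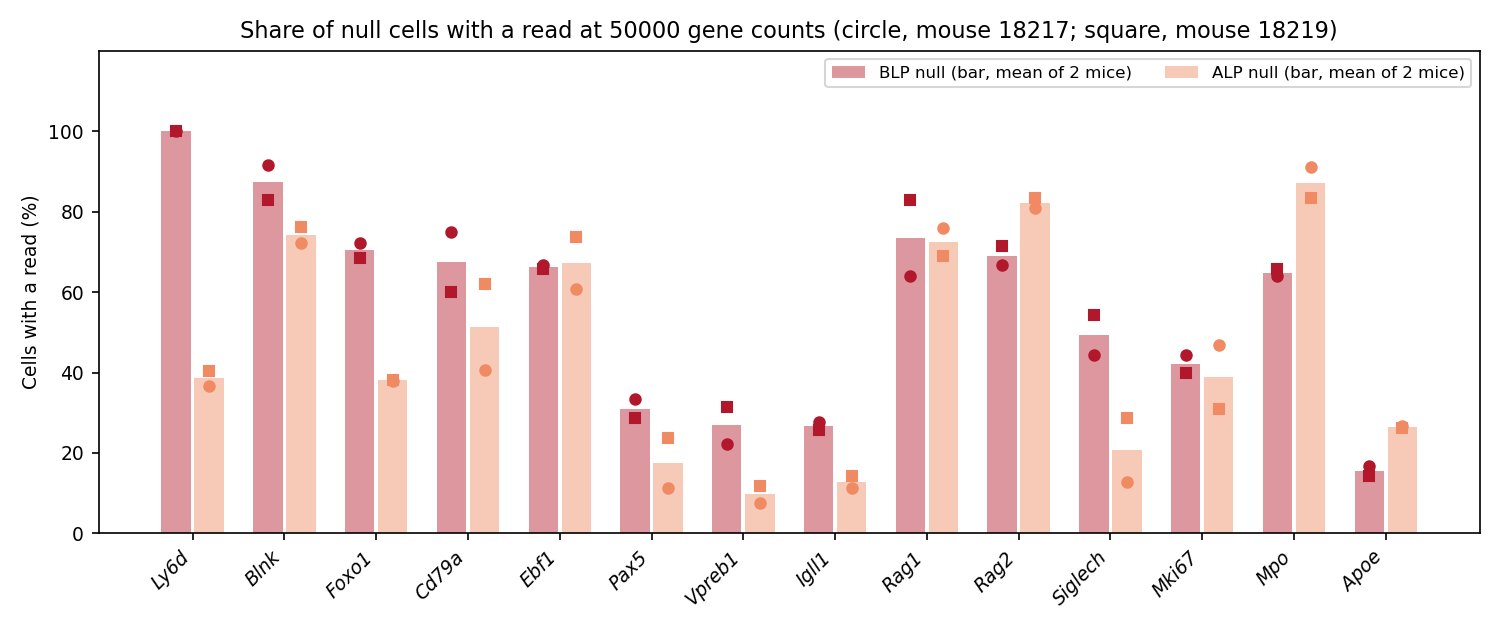
Share of null cells (%) with a read of each gene after thinning to 50000 gene counts, as a bar for the mean of 2 mice and a point per mouse, BLPs left of ALPs. Ly6d, Foxo1, Vpreb1, Igll1 and Siglech have higher BLP points in both mice, Mpo and Apoe lower ones, and Ebf1, Cd79a, Rag1 and Mki67 overlap.

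Ebf1 and Pax5 were read together in 11 of 36 and 9 of 35 null BLPs, against 7 of 79 and 10 of 42 null ALPs. In control mice the same pair was read together in 10 of 34 and 10 of 35 BLPs and in 1 of 74 and 1 of 40 ALPs. Most null BLPs with Pax5 therefore also had Ebf1, since 1 of 36 and 1 of 35 had Pax5 alone. Ebf1 and Cd79a were read together in 20 and 16 of the null BLPs and in 26 and 24 of the null ALPs of these mice. Igll1 and Vpreb1, whose products form 1 light chain, were read together in 5 and 4 null BLPs and 3 and 2 null ALPs. Reads of 2 genes in a well are a description of these cells at 1 depth.

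Counted over 21 early B genes that the sort does not use, null BLPs had a median of 8 and 9 genes with a read per cell, against 7 and 8 in null ALPs. The mice overlapped and the exact permutation p was 0.667. Cells with 8 or more of these genes were 58.3% and 71.4% of null BLPs, against 38.0% and 52.4% of null ALPs. Cells with 4 or fewer were 8.33% and 5.71% of null BLPs, against 27.9% and 21.4% of null ALPs. The null ALPs thus held both cells with few early B genes and cells with as many as BLPs. In control mice the medians were 9 and 8 in BLPs and 5 and 4 in ALPs, and 70.6% and 62.9% of BLPs but 13.5% and 5% of ALPs had 8 or more. Null LMPPs had medians of 3 and 2. The difference of medians in null mice was 1 gene. In cells thinned to 500000 gene counts it was 2.25 (exact permutation p 0.333). With the gate genes Il7r and Ly6d added to the list it was 2 (exact permutation p 0.333). The sort separates the populations by Ly6D, so that addition favours BLPs by design.

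**Figure D4:**
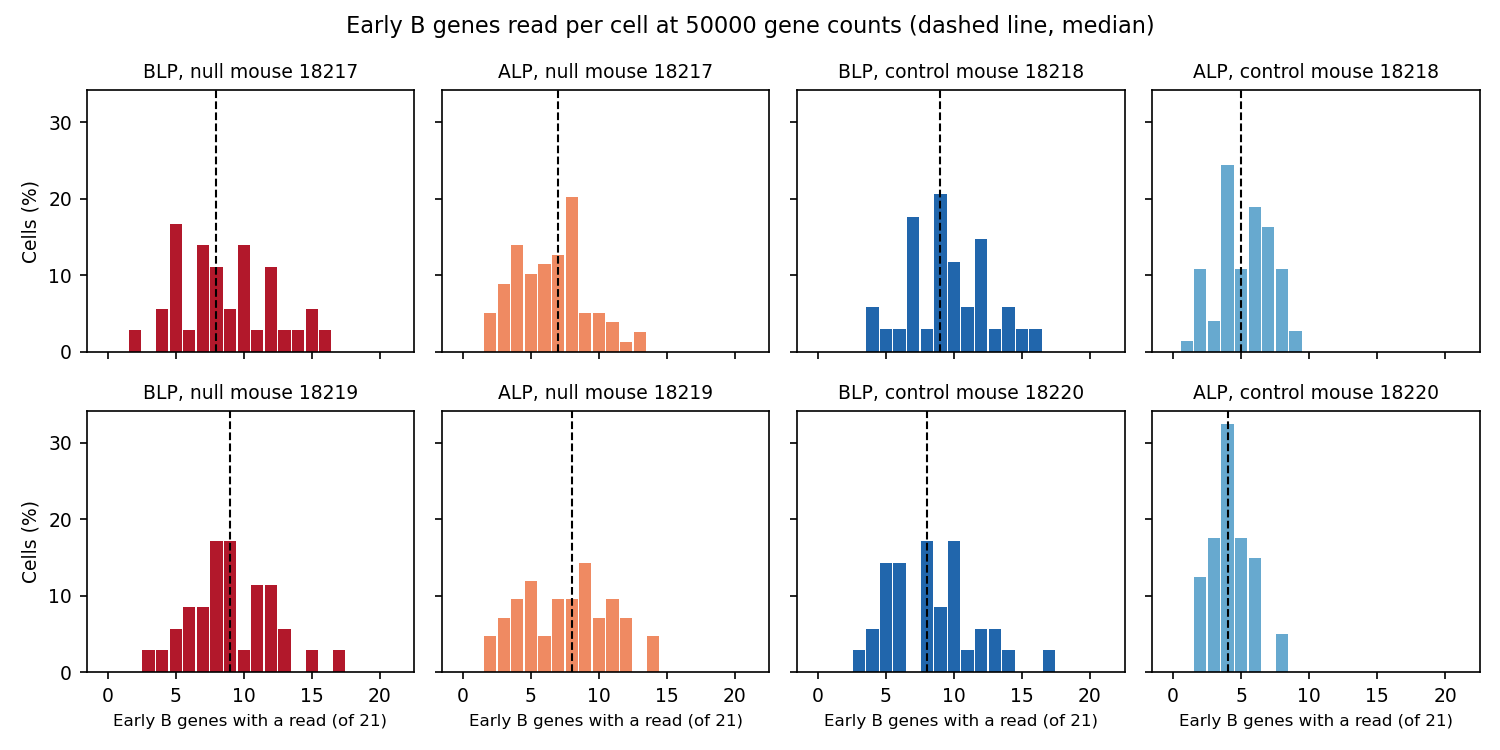
Number of 21 early B genes with a read per cell (horizontal axis) and the percent of cells (vertical axis) in BLPs and ALPs of each null and control mouse, with a dashed line at the median. Null BLPs peak near null ALPs, with medians of 8 and 9 against 7 and 8 genes, while control ALPs have medians of 5 and 4.

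Genes of dendritic cells were higher in null BLPs more often than lower. Of 18 listed, 16 were tested, 12 were higher and 4 lower, with 8 (50%) above and 3 (18.8%) below without overlap, against 16.0% and 19.1% of all genes, 0 called and a median log2 change of 0.62, against 0.40 at the control step. The list summed to 2294 and 1983 CPM in null BLPs and 1042 and 1327 CPM in null ALPs, and 11 of 16 were higher without the ALP libraries of mice 18219 and 18220. Siglech had 390.5 and 342 CPM in null BLPs and 21.8 and 45.3 CPM in null ALPs (3.45 ± 0.95, adjusted p 0.68, edgeR), against 464 and 802 CPM in control BLPs and 124 and 202 CPM in control ALPs (1.96 ± 0.89). Pld4, an endosomal nuclease of plasmacytoid dendritic cells, had 60 and 46.8 CPM in null BLPs and 24.8 and 10.8 CPM in null ALPs (1.58 ± 0.45). Runx2 had 379 and 324 CPM in null BLPs and 138 and 146 CPM in null ALPs (1.31 ± 0.38), and Zeb2 175 and 158 CPM in null BLPs and 75.5 and 80.4 CPM in null ALPs (1.10 ± 0.35), both transcription factors of that lineage. The 3 below were Cd74, H2-Ab1 and H2-Eb1, genes of MHC class II antigen presentation named after their values were seen, with Cd74 at 34.5 and 55.2 CPM in null BLPs and 77.5 and 118 CPM in null ALPs. Siglech and Cd79a were read together in 9 of 36 and 10 of 35 null BLPs, against 5 of 79 and 4 of 42 null ALPs. Siglech and Igll1 were read together in 2 and 5 null BLPs and in 3 and 2 null ALPs, so transcripts of both kinds shared wells.

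Genes of stem and multipotent cells were mostly lower in null BLPs. Of 22 tested of 23, 4 were higher and 18 lower, with 1 above (Ifitm1) and 8 below without overlap, Hlf and Cd34 among them, against 16.0% and 19.1% of all genes, and 0 were called. Their median log2 change was -0.47, against -0.45 at the control step, and 5 of 22 were higher in mouse 18217 and 10 of 22 in mouse 18219. Mecom, a regulator of stem cell self-renewal, had 6 and 6 reads in null BLPs and 1095 and 1217 reads in null ALPs. Of 17 myeloid genes tested of 20, 5 were higher, 11 lower and 1 (S100a9) without a read in null cells. Without overlap, 3 of the 17 (17.65%) lay above and 5 (29.4%) below, against 16.0% and 19.1% of all genes. The list had 0 called and a median of -0.53. With cells thinned to equal counts, 7 of the 15 still tested were higher and the median was -0.05, and it was -0.30 without mouse 18217. Mpo had 249.9 and 292 CPM in null BLPs and 846 and 729 CPM in null ALPs (-1.54 ± 0.45, adjusted p 0.698, edgeR). Csf3r, the receptor for the granulocyte growth factor G-CSF, had 1.87 and 11.1 CPM in null BLPs and 35.1 and 35.7 CPM in null ALPs (-2.45 ± 0.68). Csf2rb, the shared beta chain of the GM-CSF, IL-3 and IL-5 receptors, was on the other side, at 51 and 42 CPM in null BLPs and 13.6 and 16.4 CPM in null ALPs (1.63 ± 0.38). So was Ly6c2, at 110.2 and 111 CPM in null BLPs and 1.68 and 5.85 CPM in null ALPs (4.88 ± 1.25), a surface protein of monocytes, lymphocytes and plasmacytoid dendritic cells. The myeloid list summed to 701 and 747 CPM in null BLPs and 1214 and 1154 CPM in null ALPs, with Elane at or near 0. Mpo and Ebf1 were read together in 17 and 17 null BLPs and in 44 and 27 null ALPs.

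Genes of the G2 and M phases of the cell cycle had opposite directions in the genotypes. At the null step 23 of 24 were higher in BLPs, with a median log2 change of 1.27. Without overlap, 17 (70.8%) lay above and 0 below, against 16.0% and 19.1% of all genes. At the control step 0 of 24 were higher (16.9% of all genes were higher without overlap), 13 were lower without overlap (19.8% of all genes), and the median was -1.31. All 24 had a larger log2 change at the null than at the control step, against 48.9% of all genes. The difference of the steps had an unadjusted p under 0.05 for 10 of 24, against 6.38% of all genes, and 0 passed the threshold. The list summed to 3994 and 2520 CPM in null BLPs and 1727 and 1019 CPM in null ALPs, against 1408 and 849.7 CPM in control BLPs and 3452 and 1434 CPM in control ALPs. The sum also differed between mice of 1 genotype, by the most in control ALPs. Without the ALP libraries of mice 18219 and 18220, 22 of 24 were higher at the null step, with a median of 0.88.

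Mki67, the proliferation marker Ki-67, had 439.5 and 431 CPM in null BLPs and 194 and 44.9 CPM in null ALPs (1.86 ± 0.68), against 256 and 79.8 CPM in control BLPs and 253 and 178 CPM in control ALPs. Tpx2, a spindle assembly factor, had 100.2 and 92.9 CPM in null BLPs and 59.3 and 30.6 CPM in null ALPs, against 31.3 and 38.1 CPM in control BLPs and 124 and 59.4 CPM in control ALPs, and the steps differed by 2.50 ± 0.66 (unadjusted p 0.00463, adjusted p 0.776, edgeR). Cenpe, a kinetochore motor, had 89.9 and 89.2 CPM in null BLPs and 29.7 and 16.1 CPM in null ALPs and a difference of steps of 3.01 ± 0.95 (unadjusted p 0.0118). Bub1, a spindle checkpoint kinase, had 53.3 and 58.1 CPM in null BLPs and 24.8 and 8.69 CPM in null ALPs. The ALP values of mouse 18219, the null library that lost the most cells, were the lowest of the 4 null libraries for each of these 4 genes. Mki67 was read in 44.4% and 40% of null BLPs and 46.8% and 30.9% of null ALPs (exact permutation p 1). Cells with at least 6 of the 24 genes were 52.8% and 37.1% of null BLPs and 40.5% and 26.2% of null ALPs, against 29.4% and 17.1% of control BLPs and 41.9% and 25% of control ALPs. The share of such cells was higher in BLPs than in ALPs of the same mouse in both null mice and lower in both control mice. The median number of these genes read per cell was 6.5 and 3 in null BLPs and 4 and 3 in null ALPs. In control mice the medians were 4 and 2 in BLPs and 4 and 2 in ALPs. The medians were thus tied in mice 18219, 18218 and 18220. The opposite directions of the share hold for the limit of 6 genes and were not seen in the medians. Of the S phase genes, 7 of 22 were higher and 15 lower at the null step, with a median of -0.14. That direction turned with the mouse, since 17 of 22 were higher in mouse 18217 and 4 of 22 in mouse 18219. The median was -0.40 without mouse 18217 and 0.30 without mouse 18219, and in thinned cells 13 of 22 were higher, with a median of 0.06. Mcm6, a subunit of the replication helicase, had 546 and 509.9 CPM in null BLPs and 879 and 1066 CPM in null ALPs (-0.88 ± 0.24).

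**Figure D5:**
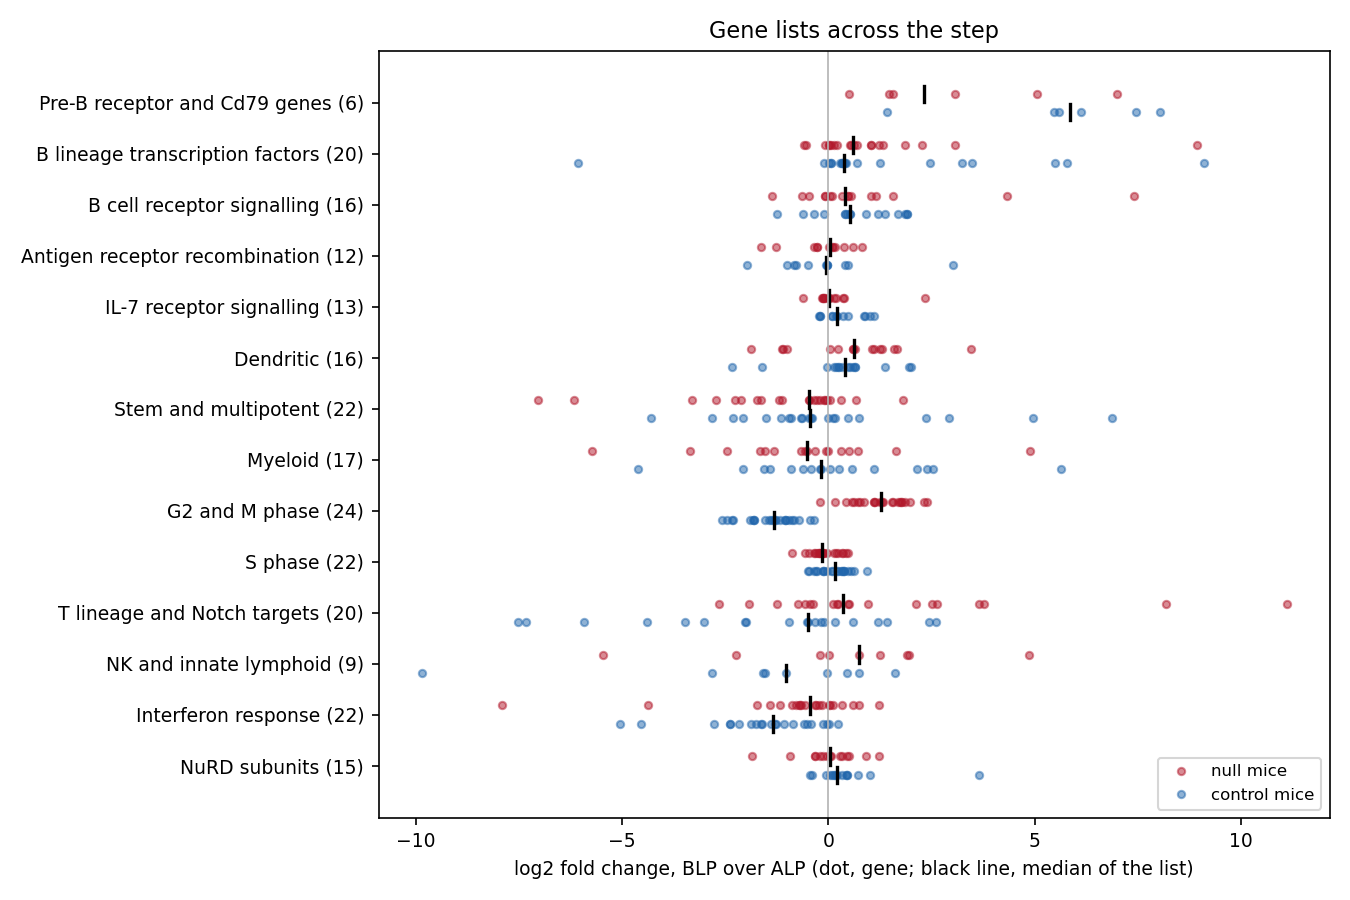
Log2 change from ALP to BLP for the tested genes of 14 lists, a dot per gene, in null mice (red) above control mice (blue), with a black line at each list's median. The 24 G2 and M phase genes lie right of 0 in null mice but for 1 and left of 0 in control mice, and the pre-B receptor genes have medians of 2.31 in null and 5.86 in control mice.

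Interferon response genes were lower for 15 of 22 and higher for 7, with 3 above (13.6%) and 6 below (27.3%) without overlap, against 16.0% and 19.1% of all genes, 0 called and a median of -0.44 (-1.34 at the control step). That direction rested on mouse 18217, in which 4 of 22 were higher, since 14 of 22 were higher in mouse 18219 and the median was 0.26 without mouse 18217. Oasl2, an antiviral gene, had 19.9 and 12.7 CPM in null BLPs and 65.3 and 42.6 CPM in null ALPs (-1.73 ± 0.47), and Ifit1 had 1 and 8 reads against 1596 and 1674 reads. The list was lower in BLPs by its sum in both null mice, but only slightly in mouse 18219, at 719 and 934 CPM in null BLPs and 1146 and 945 CPM in null ALPs. Of the 15 NuRD subunits, 8 were higher and 7 lower, with a median of 0.05. Without overlap, 3 (20%) lay above and 3 (20%) below, near the 16.0% and 19.1% of all genes. Mta1 and Mbd2, given next, were both on the higher side. Mta1 had 94.4 and 91.3 CPM in null BLPs and 43.1 and 55 CPM in null ALPs (0.92 ± 0.31), and Mbd2, the paralogue of Mbd3 that forms a NuRD of its own, had 80.1 and 75.6 CPM in null BLPs and 41.3 and 25.3 CPM in null ALPs. Of 13 erythroid and megakaryocyte genes tested of 15, 7 were higher and 5 lower, with a median of 0.16. Without overlap, 3 (23.1%) lay above and 2 (15.4%) below, near the 16.0% and 19.1% of all genes. In thinned cells 1 of the 6 still tested was higher, and the median was -0.63. Tfrc, the transferrin receptor, was that list's member with the smallest p, at 468 and 334 CPM in null BLPs and 172 and 222 CPM in null ALPs (1.03 ± 0.24). Of 20 T lineage and Notch genes tested of 24, 13 were higher and 7 lower, with 4 above (Cd247, Cd7, Nrarp and Thy1) and 4 below without overlap (Bcl11b, Cd4, Gata3 and Lat), most of them named after their values were seen. Those are 20% each, near the 16.0% and 19.1% of all genes. Lat, a T cell and mast cell adaptor, had 89.9 and 98.4 CPM in null BLPs and 139 and 175 CPM in null ALPs (-0.73 ± 0.26). Of 9 NK and innate lymphoid genes tested of 15, 6 were higher and 3 lower, and Gzma and Ncr1 had no read in any null library. The Bcl2 family had 7 higher and 7 lower, homing receptors 8 higher and 6 lower, and immediate early genes 11 higher and 8 lower (7 of 19 higher in mouse 18217 and 12 of 19 in mouse 18219). None of these genes was called in the null step.

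Outside the lists, Slpi, a secreted protease inhibitor, had 46.1 and 55.2 CPM in null BLPs and 1.24 and 0.0639 CPM in null ALPs (6.26 ± 1.38, adjusted p 0.646, edgeR), against 28.2 and 33.6 CPM in control BLPs and 22.1 and 14 CPM in control ALPs (a gene picked with its values in view). The low group for Slpi was the null ALPs. Ablim1, an actin-binding protein gene, was near absent from null cells on both sides, at 0.3 and 0.36 CPM in null BLPs and 0.514 and 0.815 CPM in null ALPs, against 67.2 and 132 CPM in control BLPs and 57.7 and 41.8 CPM in control ALPs.

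Between the steps of the genotypes, 0 of 19903 genes (0.0%) differed at an adjusted p under 0.05, and 1269 (6.38%) had an unadjusted p under 0.05, of which 611 (3.07%) had the larger log2 change at the null step and 658 (3.31%) the smaller. DESeq2 called 352 and limma-voom 1. The 5 genes with the smallest p, a level of at least 20 CPM and the smaller change in null mice were Ebf1, Rlf, Pigo, Tcf12 and Zfp661. Pigo, an enzyme of the lipid anchor that holds proteins such as Ly6D on the surface, had 3.88 and 3.3 CPM in null BLPs and 18.7 and 11.5 CPM in null ALPs, against 32.3 and 40.7 CPM in control BLPs and 12.1 and 13.5 CPM in control ALPs. The steps of Pigo thus ran in opposite directions and differed by -3.59 ± 0.71 (unadjusted p 0.000806, adjusted p 0.776, edgeR). Rlf, a zinc finger protein, had a difference of -3.52 ± 0.65 and Zfp661 one of -5.47 ± 1.17. The 5 with the larger change in null mice were Borcs6, Gnptab, Ckap2l, Rps28 and Pus10. Borcs6, a subunit of a complex that moves lysosomes, had 20.5 and 30.7 CPM in null BLPs and 4.18 and 2.89 CPM in null ALPs, against 9.99 and 9.89 CPM in control BLPs and 20.6 and 15.8 CPM in control ALPs (3.73 ± 0.83, adjusted p 0.776, edgeR). Its steps too ran in opposite directions. Gnptab, which tags lysosomal enzymes, had a difference of 2.01 ± 0.45, Ckap2l, a spindle protein, one of 2.61 ± 0.62, and Pus10 one of 1.86 ± 0.46. Rps28 has many near-identical copies, so its value is uncertain.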

How the data were processed

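Single cells were sorted one per well and made into full-length libraries without molecular identifiers, per the labels' protocols, so a count is a read. The authors deposited raw counts per gene and cell, made with GSNAP and HTSeq 0.5.3p3 on mm10, per the submitters' processing notes. Whether counting used strand is not stated there, and a gene's reads cannot be told apart from those of an overlapping or antisense partner. The table holds 46078 genes, 92 spike-ins and 5 summary entries, of which 45143 genes have a symbol in the GENCODE annotation of GRCm38. Genes took 43.2% of all entries, spike-ins 6.13%, reads on no feature 11.6%, ambiguous reads 6.08% and unaligned reads 33.0%, and only genes entered library sizes and tests. No 2 cells had identical counts (0 pairs), and no doublet caller was run.

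The kept cells of a mouse and population were added up, giving 12 libraries (6 groups of 2 mice). edgeR 4.0.16 (R 4.3.3) tested 19903 genes left by filterByExpr with TMM scaling, glmQLFit and glmQLFTest, with 6 residual degrees of freedom, Benjamini-Hochberg adjustment over all of them and a threshold of 0.05. Standard errors are approximate and were taken from the log2 change and its F statistic. Alternatives used DESeq2 1.42.0, limma 3.58.1 and other settings given further on. Scripts were tested on simulated data. Both populations came from the same mouse, so the mouse pairs them; deviations from group means correlated across genes by 0.0353 in null and 0.0694 in control mice, and mouse as a block was an alternative that changed no call.

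The cells, the 22 gene lists and the tests were chosen with earlier results of these data known. Genes were named by rule: 8 per direction with the smallest p, at 20 CPM or more and without overlap between mice, members of the B lineage and gate lists, up to 4 members of each other list, 5 per direction for the difference of the steps, and Mbd3, Apoe and Ablim1, with exceptions said in place. Predicted genes, pseudogenes, receptor segments and sex-linked genes were left out of that choice. Upper limits of shares cover counting error only, while the standard errors come from the fit of the summed libraries. Mice, not cells, are the replicates.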

Additional observations from a re-analysis of the deposited data

Results flagged for a closer look

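The share of cells with at least 6 of the 24 G2 and M phase genes had opposite directions in the genotypes: on average it was 11.6 percentage points higher in BLPs than in ALPs of null mice and -10.2 points (lower) in control mice, with both mice of each genotype on the same side. The summed level of that list had a mean log2 change of 1.26 at the null step and -1.02 at the control step, again with both mice of each genotype on the same side. The summed levels of 2 other lists also had opposite directions, NK and innate lymphoid genes with 0.24 at the null step and -0.27 at the control step, and the Bcl2 family with 0.19 at the null step and -0.07 at the control step. These 4 differences of sums and shares were not tested, since 22 lists were looked at and each genotype has 2 mice. The median number of G2 and M phase genes read per cell was the same in BLPs and ALPs of mice 18219, 18218 and 18220. Of the single G2 and M phase genes, 0 of 24 passed the threshold for a difference of the steps. The ALP libraries of mice 18219 and 18220, which lost 42 and 44 of 84 cells, enter the null and the control step; their part in the result was not tested beyond the values without them given above.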

How the results depend on the processing

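The count of genes called at the null step, 0, was also 0 with mouse as a replicate block, limma-voom, DESeq2's size factors in edgeR, all cells kept, each cell weighted equally, the 4 null libraries alone (16429 genes), those with the block, without each mouse in turn (0 to 0), and, chosen after seeing the data, without the ALP libraries of mice 18219 and 18220. It was 448 with DESeq2 (172 higher, 276 lower), 10 with no filter on low counts (Ly6d, Igll1, Ly6e and Ifitm1 higher, Tst, Hlf, Cd34, Ddx4, Tnfsf14 and Anxa3 lower) and 5 with cells thinned to equal counts (Ly6d, Slpi, Ly6e and Siglech higher, Cd34 lower). The difference of the steps gave 0 genes, against 352 with DESeq2, 1 with limma-voom (Gm43259), 1 with no filter (Ebf1, adjusted p 0.0464) and 2 with each cell weighted equally (Gm43259 and Tnfrsf9), and 0 to 0 without each mouse in turn. The causes were not tested. Of 66 genes followed at the null step, under 15 alternatives each, 0 of 990 values changed direction and 50 passed the threshold, 38 of them with DESeq2, 7 with no filter and 5 with thinned cells. Genes chosen for no overlap between mice could hardly change direction when a mouse was left out, and every alternative reused the same cells. The unchanged direction is therefore not evidence of stability. That the rest stayed short of a threshold 0 genes passed says nothing of their stability either. The difference for Ebf1 ran between -3.04 and -2.46 under 13 alternatives, with adjusted p-values of 4.95e-10 to 1. The difference of early B genes per null cell, 1, was 2.25 in cells thinned to 500000 gene counts. It was 2 with the gate genes added, an addition that favours BLPs by design, since they were sorted by Ly6D. At the null step no gene passed in the main fit, even at large changes. Ly6d, at a log2 change of 5.06, had an adjusted p of 0.266 in edgeR, and Igll1, at 7.00, one of 0.646. At the control step of the same fit Ebf1 passed, at a log2 change of 3.47 (adjusted p 0.0107, edgeR). The fit had 2 mice per group and a coefficient of variation of 86.9%, and their part in the calls was not tested. Genes carried by 1 cell are the least certain.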
